A study of Mus musculus with 9 samples.

Results

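Mouse brain tumor stem cells (BTSC) edited in Gpd1 with the guide sgRNA2 were compared with control BTSC. The comparison used 6 of the 9 libraries of the series, with 3 sgRNA2 knockout (KO) libraries and 3 controls, chosen by their labels. The other 3 libraries carry sgRNA1 and were used only where the guides were compared. According to the labels' protocols, mouse BTSC received Cas9 and a guide from the vector lentiCRISPRv2 by lipofection, were selected with puromycin, and were grown out from picked colonies that each derived from a single cell. Loss of the protein was checked by Western blot and the edit by DNA sequencing, neither of which was analysed here. Whether control cells were picked colonies or carried the vector is not stated in the labels, so the colony step, the vector and the loss of Gpd1 cannot be told apart. Nothing in the labels states that libraries of a group came from separate cultures, so p-values measure the spread between these libraries only. That spread may be technical, and for KO libraries it may also lie between colonies. Its source was not tested. Poly(A) RNA was sequenced, and the deposited values are the authors' normalized read counts per gene, which summed to between 39781901 and 42975283 per library.

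The Gpd1 protein is the glycerol-3-phosphate dehydrogenase of the cytosol, and uses NADH to reduce the glycolytic intermediate dihydroxyacetone phosphate to glycerol-3-phosphate. Glycerol-3-phosphate is the backbone of triglycerides and phospholipids. It also carries electrons into mitochondria through the glycerol phosphate shuttle, where Gpd2, the mitochondrial dehydrogenase, turns it back into dihydroxyacetone phosphate. Brain tumor stem cells are tumor cells that renew themselves in culture and share many genes with neural stem cells and glial precursors.

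The guide is printed first, since the whole comparison rests on it. Its protospacer is in lower case and its PAM, the short motif that Cas9 needs beside its target, is in capitals. It matched the minus strand of mm10 at chr15:99718169-99718188, in coding sequence of exon 2 of the 8 exons of Gpd1 (ENSMUSG00000023019, chr15:99717515-99725005). The expected cut came after 61 of the 1047 coding bases. In the second line the start of exon 2 is read on the plus strand, chr15:99718152-99718228, with the target site and its PAM in capitals. Across the 141767 GENCODE M21 transcripts, no other site with an NGG PAM matched the guide with 3 mismatches or fewer. Sites outside transcripts were not searched.
sgRNA2 with PAM: tgcattgctacccacgatctTGG
Gpd1 exon 2, start: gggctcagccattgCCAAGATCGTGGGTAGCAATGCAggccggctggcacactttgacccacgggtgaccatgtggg

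Gpd1 mRNA was lower in all 3 sgRNA2 KO libraries but was not lost. In control replicates 1, 2 and 3 its normalized read count was 25106, 26566 and 25836, and in KO replicates 1, 2 and 3 it was 10812, 10812 and 6945. The KO libraries thus stood at 41.8%, 41.8% and 26.9% of the control mean, and the groups did not overlap. The log2 fold change was -1.47 (SE 0.19), which passed in limma across all genes (adjusted p = 0.0044), while p was 0.1 in a two-sided exact permutation test, the smallest that its 20 splits can give. The sgRNA1 libraries read 3299, 1347 and 21351, so the library labelled sgRNA1 KO replicate 3 stood near the controls. With these 3 libraries in the limma fit the SE was larger and Gpd1 missed the threshold (SE 0.80, adjusted p = 0.203). A gene-level count does not read the sequence of the edited site, so it does not check the edit itself. Gm16537 lies across exons of Gpd1 on the opposite strand, and whether reads were counted by strand is not given in the sources used here.

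Of the 2 other glycerol-3-phosphate dehydrogenase genes, Gpd1l rose. It encodes a relative of Gpd1, lies on chromosome 9 from 114899341 to 114933987, and read 5337, 4983 and 5017 in control against 6691, 7247 and 8021 in KO (log2 fold change 0.51, SE 0.11, adjusted p = 0.0173 in limma). Every KO library lay above every control. Gpd2 read 9913, 10089 and 9954 in control and 9080, 7308 and 6644 in KO. These groups did not overlap either, but limma did not call the gene (log2 fold change -0.39, SE 0.14, adjusted p = 0.0659). The call on Gpd1l was lost without control replicate 1, 2 or 3 (adjusted p = 0.0619, 0.0956 and 0.0923 in limma).

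Across the genome, limma called 4873 of 15705 genes (31%) at an adjusted p of 0.05. Of these, 2317 were higher in KO (14.8% of genes tested) and 2556 were lower (16.3%), and these shares are the background for every list below. The change was 2-fold or more for 1221 higher genes (7.77%) and 1207 lower genes (7.69%). The 3 and 3 libraries did not overlap for 8632 genes (55%), with 4111 (26.2%) higher and 4521 (28.8%) lower in KO. When control replicates 1, 2 and 3 were left out in turn, 1776, 840 and 904 genes passed, while leaving out a KO library gave 4632 to 6456. Counts of called members shrank likewise, as given below for the main lists. A smaller count means fewer calls and not by itself a smaller change. The fit pools the spread of both groups, so leaving out a control gives the KO libraries more weight in it.

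The KO libraries differed from each other far more than the controls did. The median SD of a gene on the log2 scale was 0.342 among KO libraries and 0.085 among controls (n = 3 each). KO replicate 1 lay nearest the controls, with 2085 genes (13.3%) at least 2-fold from the control mean, against 4581 (29.2%) in KO replicate 2 and 3914 (24.9%) in KO replicate 3. Control replicate 1 in turn lay toward the KO side. It was the highest control for 66.3% of the genes called higher and the lowest control for 74% of those called lower. The labels give no batch, date or culture for the libraries, and the part of these differences in the results was not tested.

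The genes that rose most came from near silence in control. Osr2, a zinc finger transcription factor gene of kidney and limb development on chromosome 15 from 35296098 to 35303305, read 1, 5 and 3 in control and 258, 239 and 230 in KO (log2 fold change 6.06, SE 0.41, adjusted p = 0.000818 in limma). It was the most even of the 12 largest rises across the KO libraries. Actc1, the cardiac actin gene, read 21, 3 and 9 in control and 592, 4784 and 512 in KO (log2 fold change 6.89, SE 0.96, adjusted p = 0.0055 in limma). Its 3 KO values were all far above control, but KO replicate 2 held most of the counts.

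Several other leading rises were regulators that pattern the body or the embryo. Hoxa10, a homeobox gene of posterior identity, read 0, 3 and 0 in control and 35, 52 and 460 in KO. The ratio of sums was 182 (95% Clopper-Pearson interval 62.1 to 887, counting error only), and KO replicate 3 held most of the KO sum. Tbx15, a T-box gene, read 4, 8 and 10 against 399, 126 and 721, and the X-linked homeobox gene Esx1 read 2, 1 and 2 against 151, 81 and 268. All 3 passed in limma, with adjusted p from 0.0014 to 0.00936. Further rises were those of Rnase1, Gpr37, Mybpc1, Rph3a, Lhx1os and Syndig1l. Rnase1, a secreted ribonuclease gene, went from 2 counts in all to 352 (ratio 176, interval 48.4 to 1459), and Lhx1os from 1 count to 165 (ratio 165, interval 29.2 to 6556). Rph3a, which encodes rabphilin of synaptic vesicles, read 22, 17 and 16 in control and 1252, 1876 and 233 in KO.

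The largest falls left a small part of the control level in all 3 KO libraries. Col6a1, a chain of type VI collagen, read 365, 395 and 437 in control and 5, 1 and 5 in KO (log2 fold change -6.58, SE 0.45, adjusted p = 0.000818 in limma). Nnat, the imprinted neuronatin gene on chromosome 2 from 157560078 to 157562522, read 5076, 4173 and 4315 in control and 101, 131 and 111 in KO (log2 fold change -5.30, SE 0.16, adjusted p = 6.17e-05 in limma). Ociad2, on chromosome 5 from 73322199 to 73341028, read 1110, 1340 and 1368 in control and 21, 10 and 14 in KO (log2 fold change -6.37, SE 0.28). In each of these 3 genes the lowest control stood more than 10 times above the highest KO value. Ptprn, a protein tyrosine phosphatase-like gene of secretory granules, read 1162, 1108 and 1228 against 43, 14 and 22, and the caveolin-1 gene Cav1 read 95, 111 and 115 against 3, 0 and 2. This group also held Itpripl2, Fam19a2 and Cdsn, as well as Ifi202b, Ifi203 and Slfn8, described with their families below.

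**Figure D1:**
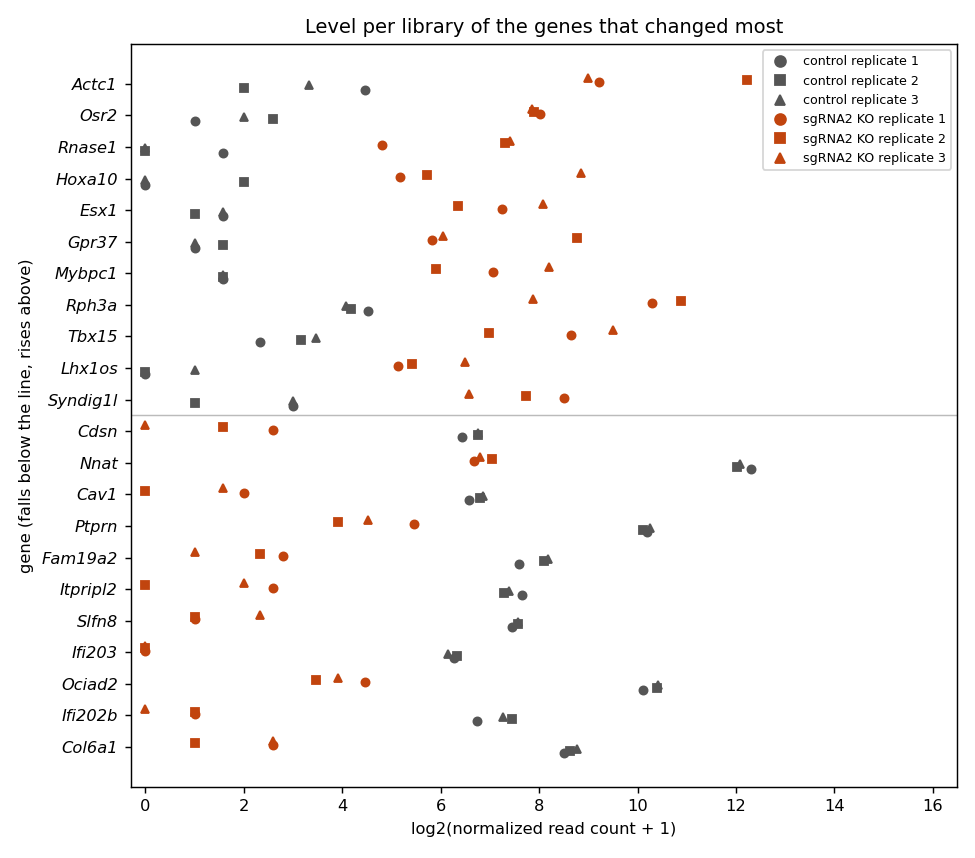
Level of 11 of the 12 largest rises (above the line) and 11 of the 12 largest falls (below it) in each library, as log2(normalized read count + 1), gray for control and orange for sgRNA2 KO, with 1 symbol per replicate. For each gene the 2 groups are apart, as the choice of genes required, and Osr2 (230 to 258 in KO) is tighter than Actc1 (512 to 4784).

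Genes of the cell division cycle were lower in KO. Of 35 DNA replication and S phase genes tested, 22 fell (62.9%) and 0 rose, with a median log2 fold change of -1.40 against -0.02 over all genes tested. In 34 of the 35, every KO library lay below every control, against 28.8% of all genes. Ccne2, the cyclin E2 gene that starts S phase, read 2627, 3012 and 2626 in control and 1185, 304 and 297 in KO (log2 fold change -2.53, SE 0.51, adjusted p = 0.0136 in limma). Pola1, the catalytic subunit of DNA polymerase alpha, read 5065, 5324 and 4813 against 2689, 979 and 901 (log2 fold change -1.92, SE 0.39).

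Mitosis and cytokinesis genes had 22 of 35 fallen (62.9%) and 0 risen, with a median of -0.94. The proliferation marker gene Mki67 read 40591, 41662 and 39014 in control and 25529, 14312 and 7451 in KO (log2 fold change -1.53, SE 0.40, adjusted p = 0.0268 in limma). Kif23, a kinesin gene of cytokinesis, fell more evenly, from 4010, 4656 and 4685 to 2199, 1245 and 1432. The size of the fall differed between KO libraries. For DNA replication the list median was -0.77, -2.38 and -1.04 in KO replicates 1, 2 and 3, and KO replicate 2 held the lowest of the 6 values for 33 of the 35 genes. For mitosis it was -0.45, -1.40 and -0.87. With control replicate 1, 2 or 3 left out, the fallen DNA replication members numbered 1, 0 and 0. The fallen mitosis members numbered 3, 1 and 1. The list medians in these fits were -1.43, -1.37 and -1.38 for DNA replication and -0.97, -0.93 and -0.94 for mitosis. With the sgRNA1 libraries in the fit, the fallen members numbered 4 for DNA replication and 1 for mitosis. In bulk RNA, fewer dividing cells and less RNA per dividing cell cannot be told apart.

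Brakes on the cycle moved the other way in part. Of 22 cell cycle inhibitor and quiescence genes, 7 rose (31.8%) and 1 fell. Btg2, an antiproliferative gene, read 3958, 2570 and 2844 in control and 15172, 14403 and 10287 in KO (log2 fold change 2.09, SE 0.21, adjusted p = 0.00254 in limma). Ccng2, a cyclin gene linked to cell cycle exit, read 1112, 738 and 814 against 3382, 4423 and 3294 (log2 fold change 2.07, SE 0.20). The G1 cyclin gene Ccnd1 read 49394, 70271 and 66375 in control and 13600, 4881 and 8032 in KO (log2 fold change -2.92, SE 0.35, adjusted p = 0.00401 in limma). Of 23 p53 target genes 2 rose and 7 fell, among them the death receptor gene Tnfrsf10b, at 432, 541 and 556 against 136, 17 and 51. In fits that left out control replicate 1, 2 or 3, the inhibitor genes that rose numbered 4, 2 and 2, and the p53 targets that fell numbered 2, 0 and 0.

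Lysosome and autophagy genes were higher. Of 34 tested, 23 rose (67.6%) and 0 fell, with a median log2 fold change of 0.72, and in 28 of them every KO library lay above every control (26.2% of all genes did). Hexa, a subunit of the enzyme that trims gangliosides, read 3160, 2927 and 2989 in control and 6655, 9022 and 13646 in KO (log2 fold change 1.63, SE 0.24, adjusted p = 0.00656 in limma). Npc2, which carries cholesterol out of the lysosome, was named outside the rule for its evenness and read 6084, 6006 and 6063 against 12624, 16208 and 15682 (log2 fold change 1.29, SE 0.13). The cathepsin gene Ctsd read 5827, 5418 and 5551 against 7463, 9645 and 10715, and Ctsa, which encodes the protective protein cathepsin A, read 3031, 2963 and 2982 against 3932, 6564 and 9087. Tfeb and Tfe3, whose proteins switch on lysosomal genes, had log2 fold changes of 0.17 and 0.21 and did not pass.

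The list median was 0.43, 0.77 and 0.79 in KO replicates 1, 2 and 3. When control replicate 1, 2 or 3 was left out, the members that rose numbered 4, 2 and 2, and the list median was 0.76, 0.69 and 0.70. Without KO replicate 1, 2 or 3 the members that rose numbered 26, 18 and 24. The summed level of the microglia and macrophage markers, of which 3 of 14 could be tested, was 824 to 902 in controls and 1446 to 2872 in KO libraries. Its part in the result for lysosome genes was not tested.

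The promoters of the lysosome list were searched for TCACGTGA, the core of the element bound by TFEB and its relatives. This motif contains the E-box CACGTG and reads the same on both strands. The RefSeq windows (GRCm38.p6, 250 bases before to 50 after the start) held it in 5 of the 27 lysosome genes with a window (18.5%), against 304 of all 27025 genes with a window (1.12%). The 5 were Atp6v0d1, Ctsa, Ctsd, Gla and Mcoln1. Gla was the exception among them in the RNA, with a log2 fold change of -0.01 that did not pass. The list was made by gene function, and its risen members were not compared with the rest. Its share of matches thus describes the list and not the response to KO. A match describes the letters and is not a measured binding site. The windows of Ctsd and Ctsa are printed with the motif in capitals, the first at chr7:142387778-142388077 on the minus strand and the second at chr2:164833523-164833822 on the plus strand, where it occurs as 2 copies.
Ctsd promoter: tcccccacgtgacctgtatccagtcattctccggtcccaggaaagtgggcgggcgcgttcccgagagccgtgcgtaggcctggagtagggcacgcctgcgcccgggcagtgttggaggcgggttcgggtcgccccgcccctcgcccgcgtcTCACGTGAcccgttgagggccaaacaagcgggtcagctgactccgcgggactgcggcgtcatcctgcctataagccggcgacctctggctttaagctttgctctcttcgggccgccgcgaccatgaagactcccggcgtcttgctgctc
Ctsa promoter: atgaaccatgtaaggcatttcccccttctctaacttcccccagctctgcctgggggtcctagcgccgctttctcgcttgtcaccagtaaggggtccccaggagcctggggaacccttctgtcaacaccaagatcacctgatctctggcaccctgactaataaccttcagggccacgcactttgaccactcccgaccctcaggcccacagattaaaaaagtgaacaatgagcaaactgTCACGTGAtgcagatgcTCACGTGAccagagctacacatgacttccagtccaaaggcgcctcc

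**Figure D2:**
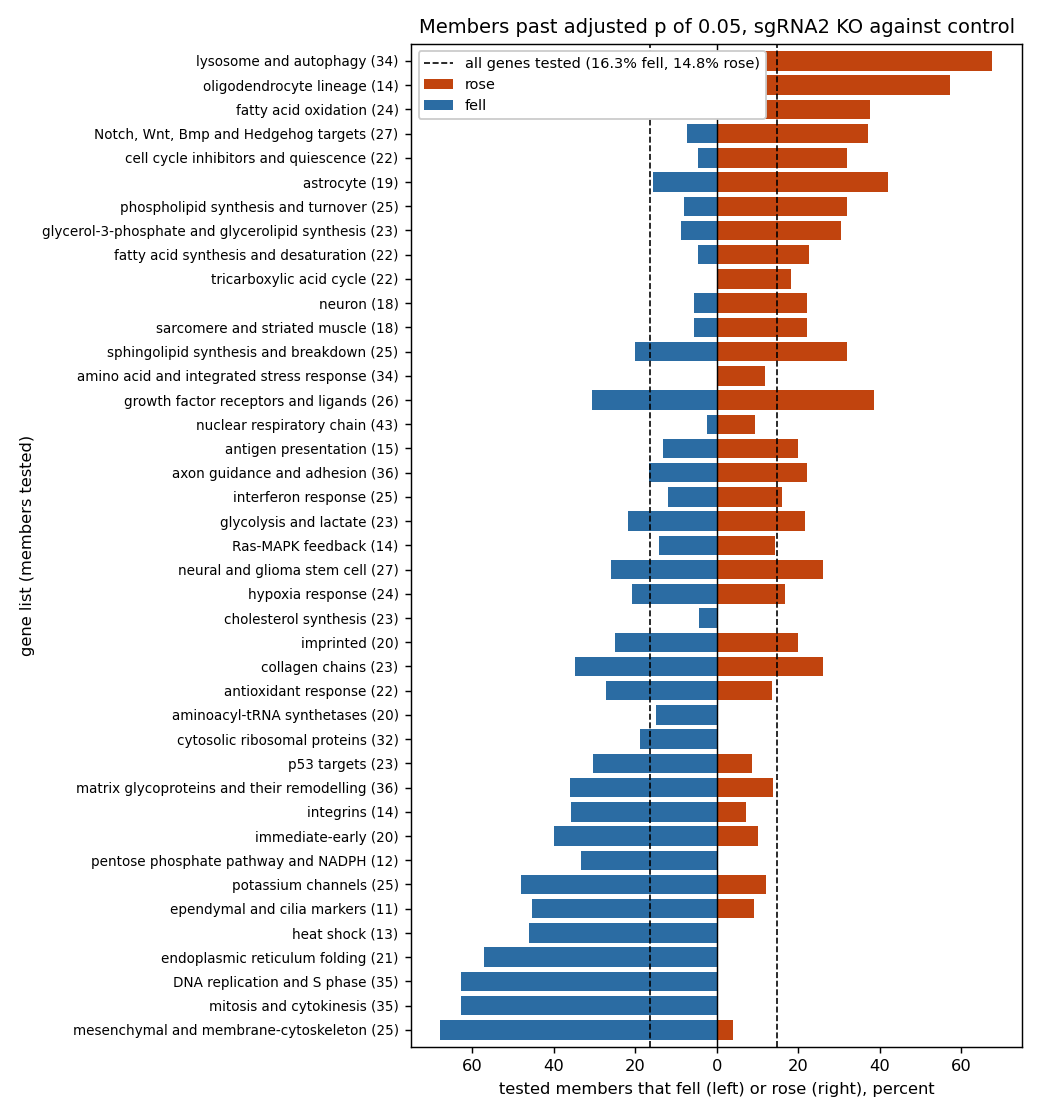
Share of each list's tested members that fell (left, blue) or rose (right, orange) at an adjusted p of 0.05, for lists with 10 or more members tested, with the number tested in parentheses. The dashed lines mark all genes tested, at 16.3% fallen and 14.8% risen, and the lysosome list (67.6% risen) and the mesenchymal list (68% fallen) lie at the ends.

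Among glycerolipid, phospholipid, sphingolipid and fatty acid oxidation genes, more members rose than fell with all 6 libraries. Of 23 glycerol-3-phosphate and glycerolipid synthesis genes, Gpd1 and its relatives included, 7 rose (30.4%) and 2 fell, with a median of 0.43. Lpin3, a phosphatidate phosphatase gene, read 670, 970 and 894 in control and 184, 73 and 53 in KO (log2 fold change -3.21, SE 0.44, adjusted p = 0.00529 in limma). It was, with Gpd1, the member that fell. Plin3, a lipid droplet coat gene, read 63, 45 and 45 against 212, 557 and 116 (log2 fold change 2.23, SE 0.53), and the acyltransferase gene Agpat4 rose as well (log2 fold change 1.01, SE 0.22). Pnpla2, the main triglyceride lipase gene, read 1202, 1129 and 1231 against 1732, 1862 and 1802. Gk, the glycerol kinase gene that makes the same product as Gpd1, read 1182, 1324 and 1267 against 1077, 918 and 814 and did not pass (adjusted p = 0.0601 in limma). Without control replicate 1, 2 or 3, 0 members passed as higher in limma, while Gpd1 and Lpin3 still passed as lower.

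Phospholipid genes had 8 of 25 risen (32%) and 2 fallen, and sphingolipid genes 8 of 25 risen (32%) and 5 fallen. Cers4, a ceramide synthase gene, read 160, 149 and 132 in control and 16, 22 and 5 in KO (log2 fold change -3.47, SE 0.49), while another ceramide synthase gene, Cers1, rose (log2 fold change 0.83, SE 0.15). Fatty acid oxidation had 9 of 24 risen (37.5%) and 0 fallen, with a median of 0.43. Among them was the peroxisomal thiolase gene Acaa1a, at 1086, 978 and 972 against 1754, 2046 and 1530 (log2 fold change 0.80, SE 0.15). With control replicate 1, 2 or 3 left out, the members that rose numbered 2, 0 and 0 for phospholipids, 5, 0 and 0 for sphingolipids, and 1, 0 and 0 for fatty acid oxidation. The fallen members numbered 0 in each of these fits for phospholipids and fatty acid oxidation and 2 in each for sphingolipids. Without control replicate 2 or 3 more sphingolipid members were thus called lower than higher. The same held for glycerolipid members when any control was left out. The list medians stayed positive in these fits, at 0.22, 0.22 and 0.21 for sphingolipids and 0.44, 0.39 and 0.40 for glycerolipids.

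The reactions next to Gpd1 in sugar metabolism did not move as a block. Of 23 glycolysis and lactate genes 5 rose and 5 fell (21.7% each). Pfkp, the platelet-type phosphofructokinase gene, read 1911, 2520 and 2413 in control and 377, 126 and 307 in KO (log2 fold change -3.21, SE 0.39, adjusted p = 0.00414 in limma), while the muscle-type gene Pfkm read 5171, 4793 and 4872 against 7958, 8948 and 7342 (log2 fold change 0.70, SE 0.12). Aldoc, the brain aldolase gene, read 45081, 40410 and 40432 against 82472, 98352 and 145542. None of the 8 genes of the malate-aspartate shuttle, the other route of NADH electrons into mitochondria, passed in limma (0 called, 1 with an unadjusted p under 0.05), and their median was -0.05. Of the pentose phosphate and NADPH genes 4 of 12 fell (33.3%), led by Rpia, the ribose-5-phosphate isomerase gene (log2 fold change -1.55, SE 0.26).

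In the tricarboxylic acid cycle list 4 of 22 rose (18.2%) and 0 fell. Pcx, which makes oxaloacetate from pyruvate, read 2164, 1875 and 1839 in control and 6547, 6977 and 13177 in KO (log2 fold change 2.11, SE 0.27), and Pdk2, a kinase gene that restrains pyruvate dehydrogenase, read 452, 339 and 385 against 1245, 2221 and 1692 (log2 fold change 2.10, SE 0.23). The respiratory chain genes of the nucleus had 4 of 43 risen (9.3%) and 1 fallen, and of 7 mitochondrially encoded genes 0 passed in limma (1 with an unadjusted p under 0.05). In fits that left out control replicate 1, 2 or 3, the glycolysis genes that rose numbered 3, 1 and 1 and those that fell 3, 1 and 1, the fallen pentose phosphate genes 2, 1 and 1, and the risen respiratory chain genes 1, 0 and 0.

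Mesenchymal and membrane-cytoskeleton genes fell. Of 25 tested, 17 fell (68%) and 1 rose, with a median of -1.52, and the list median hardly differed between KO replicates 1, 2 and 3 (-1.39, -1.32 and -1.29). Anxa2, which encodes a calcium-dependent membrane-binding annexin, read 2501, 2844 and 2829 in control and 265, 86 and 41 in KO (log2 fold change -4.78, SE 0.59, adjusted p = 0.00432 in limma). Its protein partner gene S100a10 read 531, 584 and 519 against 0, 41 and 87 (log2 fold change -5.14, SE 1.5, adjusted p = 0.0392 in limma). Ptrf, the cavin-1 gene of caveolae, was the exception, at 150, 163 and 142 against 310, 346 and 353 (log2 fold change 1.14, SE 0.16). When control replicate 1, 2 or 3 was left out, the fallen members numbered 13, 10 and 10.

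Extracellular matrix genes were split. Of 23 collagen chain genes 6 rose (26.1%) and 8 fell (34.8%). Besides Col6a1, the chain gene Col6a2 fell from 157, 167 and 195 to 22, 14 and 27, and Col18a1 fell from 1036, 1256 and 1298 to 102, 63 and 38. Col9a2, a chain of cartilage collagen IX, read 15, 14 and 14 in control and 72, 283 and 98 in KO (log2 fold change 3.05, SE 0.49). Among 36 matrix glycoprotein and remodelling genes 5 rose and 13 fell (36.1%). Fn1, the fibronectin gene, read 10738, 11159 and 11182 against 1963, 1074 and 2340 (log2 fold change -2.69, SE 0.27), and the brevican gene Bcan of brain matrix read 14323, 13152 and 13618 against 25038, 48811 and 52938 (log2 fold change 1.55, SE 0.27). Of 14 integrin genes 5 fell and 1 rose, and Itga7, a laminin receptor subunit gene, was the most even, at 3504, 3985 and 3982 against 500, 504 and 557 (log2 fold change -2.87, SE 0.12). Without control replicate 1, 2 or 3, the fallen glycoprotein genes numbered 5, 2 and 2 and the fallen integrin genes 1 in each fit. The collagen genes that rose numbered 4, 2 and 3, and those that fell 6 in each.

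Markers that pericytes, fibroblasts and vessels share with such cells moved too. The summed level of the 8 pericyte and fibroblast markers in the table (of 12 listed) was 2674 to 2918 in controls and 1184 to 4125 in KO libraries. Of the 4 that could be tested, Pdgfra, also a gene of oligodendrocyte precursors, rose, Acta2 and Rgs5 fell, and Col1a1 did not pass. Over these 4 genes Pdgfra made up 15.0% to 21.1% of the sum in controls and 86.9% to 95.8% in KO libraries, and the other 3 together summed to 2229 to 2383 in controls and 48 to 210 in KO libraries. Acta2, the smooth muscle actin gene, read 2202, 2290 and 2117 against 175, 162 and 29 and belongs to the mesenchymal list as well. The 10 endothelial markers in the table (of 12 listed) summed to 739 to 775 in controls and 270 to 377 in KO libraries. Of the 7 tested, 2 fell and 1 rose, with a median log2 fold change of 0.03. The vascular growth factor receptor gene Flt1, which held most of the sum in controls, fell from 449, 456 and 445 to 66, 14 and 34, and Kdr, a receptor gene of the same family, fell too (log2 fold change -1.53, SE 0.48). Tek, the angiopoietin receptor gene, rose from 38, 59 and 35 to 106, 96 and 90 (log2 fold change 1.16, SE 0.26). Their part in the results for matrix and mesenchymal genes was not tested.

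Among glial lineage genes more members rose than fell. Of 14 oligodendrocyte lineage genes tested, 8 rose (57.1%) and 1 fell, with a median of 1.29. Gpr17, a receptor gene of committed precursors, read 453, 181 and 255 in control and 2314, 5360 and 1326 in KO (log2 fold change 3.20, SE 0.54, adjusted p = 0.00851 in limma). Pdgfra, the receptor gene of oligodendrocyte precursors, read 613, 420 and 436 against 1390, 3933 and 1105, and Lhfpl3, another precursor gene, read 644, 510 and 514 against 1492, 4357 and 1660. KO replicate 2 was the highest library for all 3. Cldn11, which seals myelin layers, was the member that fell, from 184, 107 and 120 to 35, 27 and 39. The lineage factor genes Olig1 and Olig2 did not pass. As a check of the labelled cell type, Olig2 read at least 27362 in each of the 6 libraries, and the stem cell genes Nes and Sox2 at least 15458 and 7105.

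Of 19 astrocyte genes, 8 rose (42.1%) and 3 fell (15.8%). The list median was -0.01, 0.92 and 0.65 in KO replicates 1, 2 and 3, so as a list these genes were not raised in KO replicate 1. S100b, a calcium-binding protein gene of glia, read 412, 201 and 230 in control and 1877, 11812 and 1967 in KO (log2 fold change 3.72, SE 0.70, adjusted p = 0.0118 in limma). Apoe, the lipid carrier gene, read 11072, 6613 and 7134 against 25482, 129731 and 77778 (log2 fold change 2.98, SE 0.55), and the glutamine synthetase gene Glul read 11475, 10438 and 10704 against 31912, 50783 and 89027. The intermediate filament gene Gfap fell from 4827, 3348 and 3480 to 999, 916 and 2118 (log2 fold change -1.62, SE 0.33), and Clu fell from 2126, 2115 and 2157 to 682, 443 and 564. Neuron genes had 4 of 18 risen (22.2%), Dcx and Syp among them, and 1 fallen, Gap43, at 2397, 2660 and 2550 against 319, 210 and 473. For Gpr17, Apoe and S100b control replicate 1 was the highest control and so the closest to the KO values. With control replicate 1, 2 or 3 left out, the oligodendrocyte genes that rose numbered 5, 3 and 3, and the astrocyte genes that rose 8, 3 and 3.

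Among neural and glioma stem cell genes 7 of 27 rose and 7 fell (25.9% each), so the list had no single direction. Hes5, a Notch target gene, read 1289, 450 and 657 in control and 3491, 3690 and 3373 in KO (log2 fold change 2.28, SE 0.35, adjusted p = 0.00684 in limma). Nes, the nestin gene, read 37297, 46053 and 44266 against 21931, 18786 and 15458 (log2 fold change -1.19, SE 0.16), while Sox2 read 8756, 7105 and 7252 against 12389, 12219 and 23374. Of 27 targets and parts of the Notch, Wnt, Bmp and Hedgehog pathways, 10 rose (37%) and 2 fell. The Notch ligand gene Dll3 read 320, 182 and 207 against 1302, 4053 and 1980 (log2 fold change 3.25, SE 0.42), and the Notch target gene Hey2 read 62, 30 and 44 against 199, 440 and 212. The Wnt effector gene Tcf7 went down, from 372, 527 and 556 to 119, 63 and 58 (log2 fold change -2.64, SE 0.32). In fits that left out control replicate 1, 2 or 3, the stem cell genes that rose numbered 2 in each fit, and the pathway genes that rose 10, 5 and 5.

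Growth factor receptors and ligands changed in both directions, with 10 of 26 risen (38.5%) and 8 fallen (30.8%). Met, the hepatocyte growth factor receptor gene, read 276, 378 and 411 in control and 15, 16 and 19 in KO (log2 fold change -4.32, SE 0.24, adjusted p = 0.000512 in limma). Pdgfd, a ligand gene of the PDGF family, read 1, 1 and 2 against 43, 150 and 84, while Pdgfa fell from 754, 939 and 995 to 495, 277 and 453. Egfr, the epidermal growth factor receptor gene, read 20115, 19168 and 19326 against 25846, 36573 and 61647 (log2 fold change 0.99, SE 0.29, adjusted p = 0.0389 in limma). Immediate-early genes had 8 of 20 fallen (40%) and 2 risen. Arc, a gene switched on by synaptic and growth factor signals, read 98, 136 and 149 against 2, 14 and 11, and Dusp1, a phosphatase gene that switches MAP kinases off, rose from 508, 498 and 469 to 1496, 1978 and 1453. When control replicate 1, 2 or 3 was left out, the growth factor genes that rose numbered 4, 3 and 3, and the immediate-early genes that fell 6, 4 and 4.

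Of 25 potassium channel genes 12 fell (48%) and 3 rose. Kcna1, a delayed rectifier gene, read 79, 74 and 73 in control and 5, 4 and 0 in KO (log2 fold change -4.62, SE 0.67), and Kcnf1 fell from 340, 410 and 419 to 69, 133 and 82. In the other direction, Kcnn2, a calcium-activated channel gene, read 251, 146 and 185 against 2422, 6550 and 4429 (log2 fold change 4.44, SE 0.37, adjusted p = 0.00153 in limma). Of 20 imprinted genes 4 rose and 5 fell. Beside Nnat, the imprinted factor gene Plagl1 fell from 500, 607 and 601 to 209, 196 and 175, and Grb10, an adaptor gene that restrains growth factor receptors, rose from 14, 13 and 21 to 79, 122 and 115. Without control replicate 1, 2 or 3 the fallen channel genes numbered 4, 3 and 3, and the imprinted genes that fell 2 in each fit.

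Among the Ifi200 genes, whose proteins sense DNA, and the schlafen genes of immune cells, 4 of 17 could be tested. The others were too low to test or had no value. All 4 fell, but Ifi202b, Ifi203 and Slfn8 met the minimum mean for testing through their control values alone. The falls are thus results for these 4 genes and not for the families. Ifi203 read 76, 80 and 70 in control and 0, 0 and 0 in KO, which makes it at least 25.1-fold lower at a floor of 3 counts per library. Ifi202b summed to 431 counts over the controls and 2 over the KO libraries, a ratio of 215.5 (95% Clopper-Pearson interval 59.3 to 1785). Slfn8 read 173, 188 and 188 against 1, 1 and 4, and Slfn9 read 2636, 2819 and 2754 against 1190, 398 and 616 (log2 fold change -2.04, SE 0.36). These genes have near-identical relatives, and Mndal shares its strand and some exons with Ifi203, so reads may be split between them and the values are uncertain. Of 25 interferon response genes 4 rose (16%) and 3 fell (12%), close to the background. The antiviral gene Rsad2 rose from 95, 78 and 82 to 389, 439 and 239, and Gbp3 fell from 1271, 1410 and 1281 to 539, 491 and 804.

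Protein folding genes fell. Of 21 genes of folding in the endoplasmic reticulum 12 fell (57.1%) and 0 rose, with a median of -0.77. Hspa5, the main chaperone of that compartment, read 36528, 41628 and 40129 in control and 19086, 17271 and 10527 in KO (log2 fold change -1.38, SE 0.22, adjusted p = 0.00791 in limma), and Creld2 read 2686, 3102 and 2893 against 1559, 1201 and 1198. Of 13 heat shock genes 6 fell (46.2%) and 0 rose. Hsp90aa1, the inducible cytosolic chaperone gene, read 7794, 9025 and 7796 against 4082, 2331 and 1757 (log2 fold change -1.68, SE 0.29). Of 22 antioxidant genes 3 rose and 6 fell. The glutathione transferase gene Gstm1 rose from 3052, 2850 and 2903 to 6864, 7287 and 12501, while the thioredoxin reductase gene Txnrd1 fell from 15228, 16798 and 16772 to 9550, 6658 and 8617. With control replicate 1, 2 or 3 left out, the fallen endoplasmic reticulum genes numbered 8, 5 and 5, the fallen heat shock genes 4, 0 and 1, and the fallen antioxidant genes 2, 1 and 2.

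**Figure D3:**
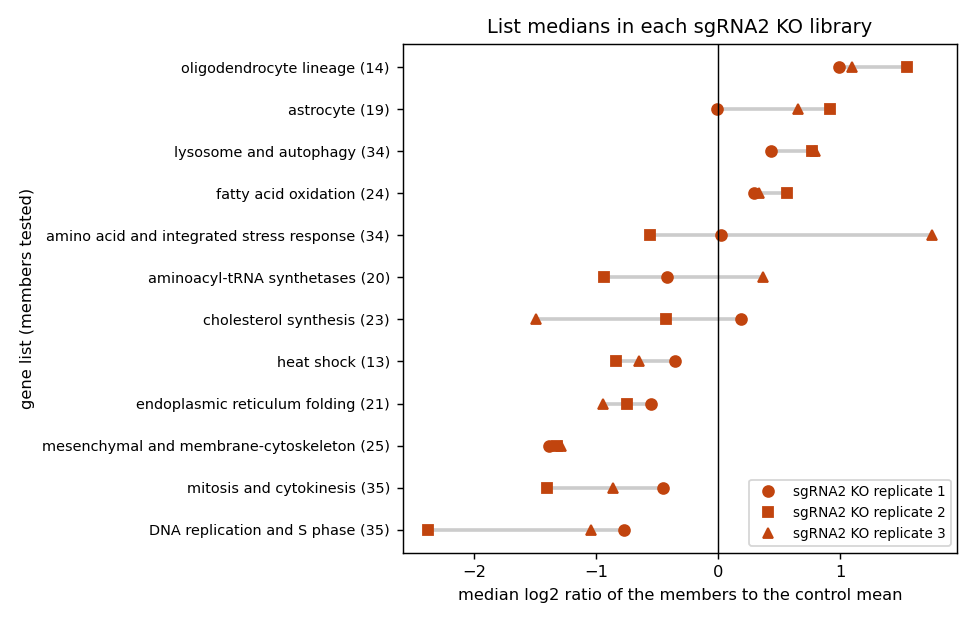
Median log2 ratio of each list's members to the control mean in the 3 sgRNA2 KO libraries, with 1 symbol per replicate and the number of members tested in parentheses. The mesenchymal list sits between -1.39 and -1.29, while the integrated stress response list spreads from -0.56 to 1.75 and the cholesterol list from -1.49 to 0.19.

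Some gene groups parted the KO libraries from each other instead of from the controls, and these are described without a test, since each rests on 1 library. The integrated stress response raises the factor Atf4 and its targets, which import and make amino acids, when translation is restrained. Of 34 genes of this list, 31 were at least 2-fold above the control mean in KO replicate 3 (12.8% of all genes were), against 2 in KO replicate 1 (6.84%) and 2 in KO replicate 2 (14.4%). In KO replicate 2, 13 of the 34 were at least 2-fold below the control mean (14.8% of all genes were). The list median was 0.02, -0.56 and 1.75 in KO replicates 1, 2 and 3, and 31 members had their highest value of the 6 libraries in replicate 3.

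Chac1, a glutathione-degrading enzyme gene, read 53, 72 and 55 in control and 65, 13 and 3311 in KO. Trib3, a pseudokinase gene of the same response, read 141, 147 and 146 against 116, 21 and 5711. The stress gene Nupr1, named after its values were seen, read 34, 32 and 37 against 168, 30 and 4851. Atf4 itself read 7456, 8466 and 8031 against 6458, 4950 and 18938, and Asns, the asparagine synthetase gene, read 3142, 3343 and 3348 against 2734, 1196 and 18063. In all 5 genes KO replicate 3 was far above the other 5 libraries, and in all but Nupr1 both other KO values lay within or below the control range.

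As a group comparison, 4 of the 34 passed as higher (11.8%) and 0 as lower. Ddit4, an inhibitor gene of mTOR signaling, was raised in every KO library, at 2947, 1956 and 2044 against 8902, 4678 and 7170 (log2 fold change 1.55, SE 0.27, adjusted p = 0.00894 in limma), as was the alanine transaminase gene Gpt2, at 12995, 9879 and 10792 against 18545, 25331 and 31898. Without KO replicate 3, 5 members passed as higher and 4 as lower, and without control replicate 1, 2 or 3 the higher ones numbered 2, 0 and 0. The aminoacyl-tRNA synthetase genes, several of which Atf4 controls, had a median of -0.42, -0.94 and 0.37 in KO replicates 1, 2 and 3. For 14 of these 20 genes KO replicate 3 was the highest library and for 17 of them KO replicate 2 was the lowest. With all 6 libraries 3 of the 20 fell, without KO replicate 3 it was 15, and without any of the controls 0 passed in limma.

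The promoters of the stress list were searched for TGATGNAA on both strands, the composite element bound by Atf4 with C/EBP proteins, which does not contain the lysosomal motif. It was found in 8 of the 29 genes with a window (27.6%), against 1219 of all 27025 (4.51%). This share too describes a list made by gene function, and changed members were not compared with the rest. The 8 were Asns, Atf3, Chac1, Nupr1, Pycr1, Slc7a11, Trib3 and Vldlr. The RefSeq windows (GRCm38.p6) of the genes with the largest gap in KO replicate 3 are printed with the motif, here on the opposite strand, in capitals. Chac1 is at chr2:119350992-119351291 on the plus strand and Trib3 at chr2:152344011-152344310 on the minus strand.
Chac1 promoter: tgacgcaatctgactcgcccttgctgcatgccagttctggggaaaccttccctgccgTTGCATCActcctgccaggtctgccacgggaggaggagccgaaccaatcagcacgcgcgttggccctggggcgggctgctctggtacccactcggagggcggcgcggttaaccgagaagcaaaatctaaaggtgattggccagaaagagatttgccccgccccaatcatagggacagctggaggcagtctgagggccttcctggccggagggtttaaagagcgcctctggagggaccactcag
Trib3 promoter: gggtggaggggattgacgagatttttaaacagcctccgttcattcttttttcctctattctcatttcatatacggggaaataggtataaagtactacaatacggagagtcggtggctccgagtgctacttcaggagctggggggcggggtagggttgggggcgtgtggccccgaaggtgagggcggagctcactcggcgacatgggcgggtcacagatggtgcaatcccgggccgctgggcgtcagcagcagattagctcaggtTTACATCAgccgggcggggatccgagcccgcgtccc

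Cholesterol synthesis genes, which the SREBP factors control together, were low in KO replicate 3. Of 23 members, 17 were at least 2-fold below the control mean there (12.1% of all genes were), against 1 in KO replicate 2 (14.8%) and 0 in KO replicate 1 (6.43%), and the list median was 0.19, -0.43 and -1.49 in KO replicates 1, 2 and 3. KO replicate 3 held the lowest of the 6 values for 22 of the 23, and KO replicate 1 the highest for 16. Hmgcs1, which makes the first dedicated intermediate, read 53796, 53359 and 52664 in control and 68427, 57333 and 12303 in KO, and Idi1, a later enzyme of the pathway, read 484, 608 and 478 against 468, 289 and 90. Both were named after their values were seen. In the group comparison 1 of the 23 fell (4.35%) and 0 rose. Without KO replicate 1, 11 members fell, without KO replicate 3, 2 rose and 1 fell, and without KO replicate 2 or any control 0 passed in limma.

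**Figure D4:**
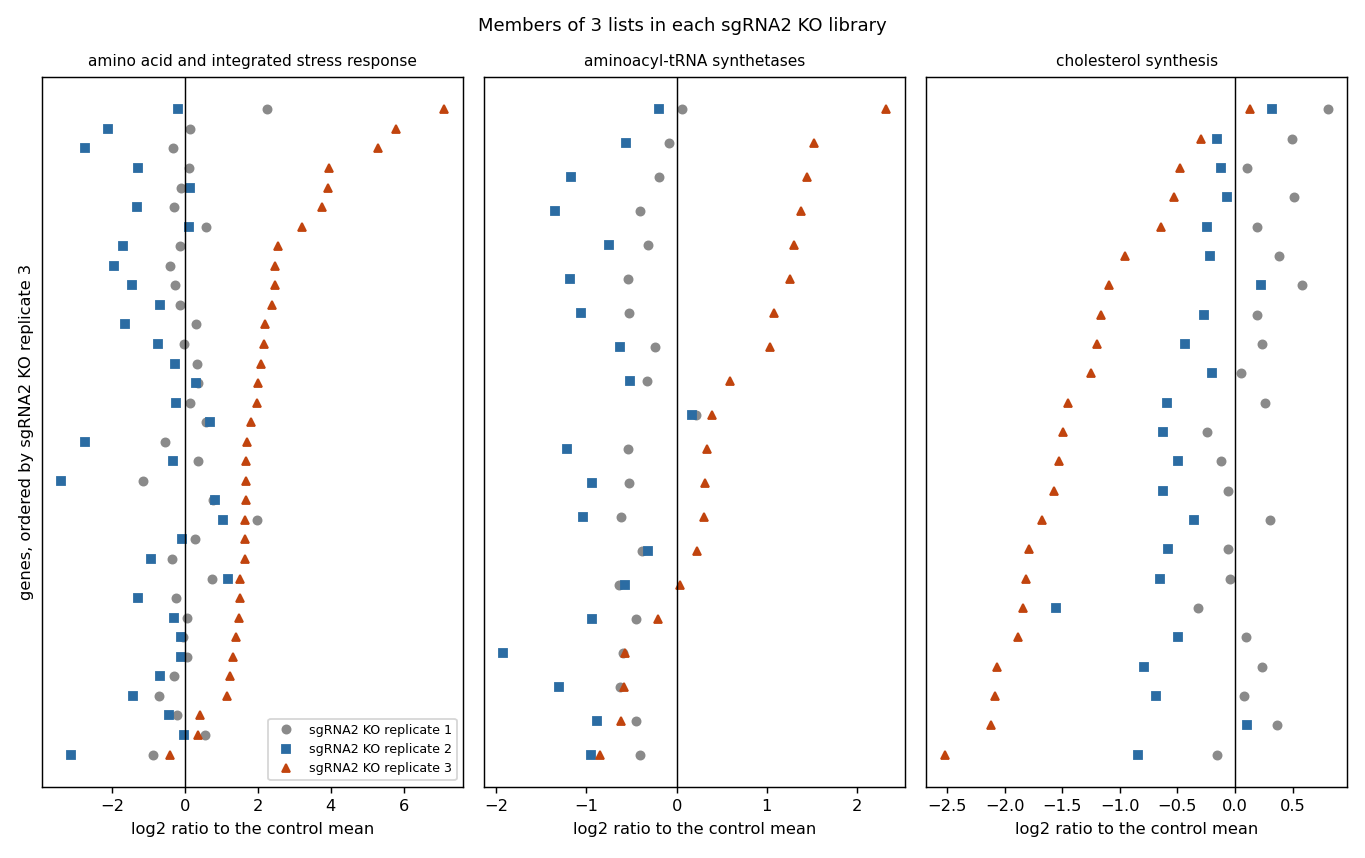
Log2 ratio to the control mean of each member of 3 lists in the 3 sgRNA2 KO libraries, with genes ordered by KO replicate 3 (orange triangles). The stress response genes lie right of 0 in that library for all but Cebpb (the lowest triangle), while all cholesterol genes but Tm7sf2 (the highest triangle) lie left of it.

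Each KO library also had genes at levels that none of the other 5 libraries reached, again described without a test. In KO replicate 3, Thsd7b read 82 and was at 0 in the other 5 libraries, and Cox6a2, a muscle form of a cytochrome oxidase subunit gene, read 153 against 0 to 2. The TAM receptor ligand gene Gas6 read 43 there, against 390 to 3247 elsewhere. In KO replicate 2, Gdpd3, a lysophospholipase gene, read 363 against 11 to 24, and the synaptotagmin gene Syt13 read 12 against 266 to 907. The DNA sensor gene Mb21d1, which encodes cGAS, read 22 in that library against 284 to 495. KO replicate 1 had smaller departures, with Dleu7 at 61 against 3 to 6, Tmem132e at 209 against 9 to 46, and the MAP kinase phosphatase gene Dusp6 at 3636 against 8945 to 17640.

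One chromosome stood apart in 1 library. Over genes with a mean of at least 100, the median log2 ratio to the control mean of the 931 genes on chromosome 11 was 0.46 in KO replicate 3, against -0.01 in KO replicate 1 and -0.17 in KO replicate 2. The medians of the other 19 chromosomes ran from -0.20 to 0.08 in KO replicate 3, from -0.11 to 0.04 in KO replicate 1 and from -0.20 to 0.07 in KO replicate 2. In KO replicate 3, 75.6% of the chromosome 11 genes lay above their control mean. The shift ran along the chromosome, with medians from 0.19 to 0.52 over 7 successive stretches. Without chromosome 11 genes, 4696 of the 14465 genes left were called, and the lysosome genes that rose numbered 21. Both counts lack the members on that chromosome, so they do not measure the part of the shift in the calls. Gabarap and Gaa, both on that chromosome, read 28690 and 15869 in KO replicate 3, against 10313 and 7104 in KO replicate 1. The part of chromosome 11 in the results for single genes was not tested, and DNA copy number was not measured.

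**Figure D5:**
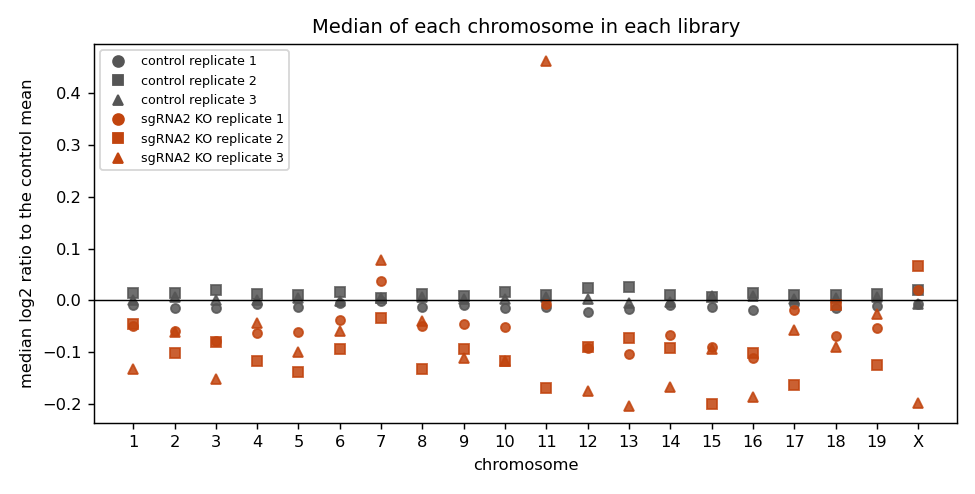
Median log2 ratio to the control mean of the genes on each chromosome (mean of at least 100), gray for control and orange for sgRNA2 KO, with 1 symbol per replicate. Chromosome 11 in KO replicate 3 lies at 0.46, and every other point lies between -0.20 and 0.08.

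The sgRNA2 libraries were also set against the 3 sgRNA1 libraries, in a limma fit of all 9 libraries over 15827 genes, to ask what differed between the guides. No gene passed (0 called, smallest adjusted p = 0.762), and 474 genes (2.99%) had an unadjusted p under 0.05. The count was also 0 with other pseudocounts, filters and scalings and with the 6 KO libraries alone (190 to 842 with an unadjusted p under 0.05). Without the library labelled sgRNA1 KO replicate 3, in which Gpd1 read 21351, it was 173, of which 83 were higher and 90 lower with sgRNA2, without sgRNA1 KO replicate 1 or sgRNA2 KO replicate 1 it was 1, and without any other KO library it was 0. A miss in limma does not show that the guides act alike. For Gpd1 the log2 difference between guides was 1.03, with a 95% interval from -0.78 to 2.85, and for Gpd1l it was 0.07 (-0.19 to 0.32).

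The genes with the smallest p between guides are given as values, since none passed in limma (adjusted p = 0.762 for Tfpi, Mobp and Gng2, and 0.778 for Prss35, Ociad2 and Col16a1). Tfpi, an inhibitor gene of the clotting cascade, read 176, 646 and 665 with sgRNA2, 43, 44 and 34 with sgRNA1, and 49, 37 and 46 in control. Gng2, a G protein subunit gene, read 521, 1158 and 2497 with sgRNA2, 79, 106 and 17 with sgRNA1, and 1350, 1546 and 1300 in control. Mobp, a myelin gene, read 39, 69 and 43 with sgRNA2 and 14, 9 and 12 with sgRNA1. In each of the 3 the guides did not overlap. Ociad2 read 21, 10 and 14 with sgRNA2 and 122, 31 and 73 with sgRNA1, both under the controls, Prss35 read 41, 27 and 39 with sgRNA2 and 161, 80 and 135 with sgRNA1, and Col16a1 read 1767, 1233 and 1020 with sgRNA2 and 2596, 2233 and 2333 with sgRNA1. No gene is called particular to sgRNA2 here.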

How the data were processed

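Poly(A) RNA of 3 control and 3 sgRNA2 KO libraries of mouse BTSC was compared, with 3 sgRNA1 KO libraries for the guide comparison. The tools, per the submitters' processing notes, were STAR (2.4.1d), the counter featureCounts and DESeq2, on mm10, and the annotation release is not given in the sources used here. Each gene has 1 deposited score for every library, which from the values is a read count scaled per library and rounded by the authors. Raw depth is therefore unknown, and totals were 39781901 to 42975283. Count tests were not run.

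Tests ran on log2(value + 1) of the 15705 of 21899 genes whose mean in the 6 libraries reached 10, which understates fold changes of low genes. The test was limma 3.58.1 under R 4.3.3 (two-sided, trended prior variance), called at 0.05 after Benjamini-Hochberg adjustment. It assumes for each gene the same variance in both groups. "Rose" and "fell" refer to this test. The guides were compared in a 3-group fit of 9 libraries. Code was tested on simulated data. Low-count ratios carry 95% Clopper-Pearson intervals, for counting error only, and a floor of 3 counts per library. These intervals treat the scaled values as counts, so they are approximate, and they leave out differences between libraries. Of the genes, 21817 matched GENCODE M21, and promoters came from RefSeq (GRCm38.p6).

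The members, the 47 gene lists and the rules were chosen with earlier results of these data known. Lists are described by counts and medians, without a test. The rule named Gpd1, Gpd1l, Gpd2, the 12 largest rises and falls (groups apart, the higher with a mean of 50 or more, no predicted genes), up to 3 risen and 3 fallen members per list (or the 2 highest where none passed), 3 guide differences each way, and 6 outlying genes per side and KO library. Some genes that it takes are not reported here. Genes named outside it, chosen after their values were seen, are Asns, Atf3, Atf4, Atp6v0d1, Cebpb, Col1a1, Ctsa, Ctsd, Egfr, Gabarap, Gk, Gla, Hmgcs1, Idi1, Mcoln1, Npc2, Nupr1, Olig1, Olig2, Pnpla2, Pycr1, Slc7a11, Slfn9, Tfe3, Tfeb, Tm7sf2 and Vldlr. Alternatives were pseudocounts, filters, scalings, variance models, a replicate block, 9 libraries, each library left out, and, added later, no chromosome 11 genes. Tables and figures used Python 3.11.15.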

Additional observations from a re-analysis of the deposited data

How the results depend on the processing

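The count of 4873 changed genes stayed within 1.5 times under pseudocounts of 0.5 and 5, both filters, both scalings, the variance weights, no trend and robust moderation (4253 to 4900), and Gpd1 passed in all of them. With a replicate block it was 3647 (1662 higher, 1985 lower). The replicate numbers did not pair the libraries: deviations of same-numbered control and KO libraries correlated at -0.16, -0.16 and 0.06 across genes, so calls under the block are given here only. It lost the call on Gpd1l (adjusted p = 0.0587 in limma) and left 0 genes different between guides (700 with an unadjusted p under 0.05). With all 9 libraries 3505 genes passed, the lower ones numbering 1696, and Gpd1 missed (log2 fold change -1.47, adjusted p = 0.203). Leaving out each library in turn gave 840 to 6456 changed genes, 408 to 2961 higher and 432 to 3495 lower. Without control replicates 1, 2 and 3 the changed genes numbered 1776, 840 and 904. The fit pools the spread of both groups, whose median SD was 0.085 among controls and 0.342 among KO libraries. The part of this pooling in the counts was not tested. Over the libraries left out in turn, the log2 fold change of Gpd1 ranged from -1.58 to -1.26. For the difference between guides the range was 0 to 173, the highest without the library labelled sgRNA1 KO replicate 3. Without chromosome 11 genes, an alternative chosen after seeing the data, 4696 of 14465 genes passed. The scalings moved the median of all genes by less than 0.1, and 42.6% to 51.7% of calls were higher under every setting.

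Of 208 genes named from the rule and lists, 202 kept direction and call with quantile normalization, 197 with the replicate block, 169 of 207 with 9 libraries, and 133, 97 and 97 of 207 without control replicates 1, 2 and 3. Genes near no change reversed: Mdh1 with quantile normalization (0.0025), and, over the libraries left out in turn, Mdh2 (-0.15 to 0.074, above 0 without KO replicate 2), Mdh1 (-0.24 to 0.089, above 0 without KO replicate 3) and mt-Cytb (-0.12 to 0.16, below 0 without control replicate 3 at -0.01 and without KO replicate 2). Where they reversed, their adjusted p was 0.503 to 0.995 in limma. Genes with few reads are limited by counting error, and with 3 against 3 libraries an exact test cannot go below 0.1.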
